A study of Homo sapiens with 7 samples.

Results

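The region described here lies on chromosome 16 and holds the chromatin loop with the highest count in unmodified HEC-1-B cells, for both CTCF and RAD21. It is named after the genes MMP2 to SLC6A2. Its loops were taken by position, as every loop with at least 1 anchor midpoint from 55350000 to 55900000 (hg19). The position itself was chosen by a measured value, the wild-type CTCF and RAD21 count of that loop, called the domain loop below. The wild-type counts of the domain loop and every comparison that uses them are therefore descriptions. The rule found 73 loops among the 135475 loops of the 7 lists: 19 of 19313 wild-type CTCF loops, 15 of 16788 wild-type RAD21 loops and 1 of 11981 wild-type ZNF143 loops. In cells with the ZNF143KO genotype it found 9 of 15597 CTCF loops and 17 of 10804 RAD21 loops. In CTCF-AID cells it found 11 of 40405 ZNF143 loops at 0 h and 1 of 20587 at 24 h of auxin.

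HEC-1-B is a human uterine adenocarcinoma cell line. HiChIP ligates DNA ends that are close together in fixed nuclei, enriches the ligated fragments with an antibody and sequences both ends. The 7 groups were: wild-type cells with antibodies against ZNF143, CTCF and RAD21, cells of the ZNF143KO genotype with CTCF and RAD21 antibodies, and CTCF-AID cells treated with IAA for 0 h or 24 h, with the ZNF143 antibody. IAA is the auxin that triggers the breakdown of a protein carrying the AID tag in cells that express TIR1. Whether the derived lines came from 1 clone is not given in the sources used here. As each group held a single library, replicate error could not be estimated and no test was run. Every interval below is a 95% interval for counting error in those libraries only.

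CTCF is a zinc-finger protein that binds DNA at a directional motif, and cohesin, of which RAD21 is a subunit, is thought to extrude DNA until it meets bound CTCF. Strong CTCF and cohesin loops of this kind often enclose a domain whose genes and enhancers contact each other more than their surroundings. ZNF143 is another zinc-finger protein, known mainly for binding promoters. The RefSeq gene table, which is of another build (GRCh38.p14), held all 4 named genes, in the order MMP2, LPCAT2, CAPNS2 and SLC6A2. MMP2 encodes gelatinase A, a secreted protease that degrades collagen IV. LPCAT2 encodes an acyltransferase that makes platelet-activating factor and remodels membrane phospholipids. CAPNS2 encodes a small regulatory subunit of calpain proteases, and SLC6A2 encodes the noradrenaline transporter of nerve cells. In that table IRX6, a homeobox gene, lies on the MMP2 side and the carboxylesterase genes CES1 and CES5A on the SLC6A2 side. No annotation of hg19 was used, so anchors were not assigned to MMP2, LPCAT2, CAPNS2 or SLC6A2, and no anchor sequence was read.

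The list totals, which are sums over listed loops and not sequencing depth, ran from 33460 to 143119. The lowest listed count was 2 and the filters behind the lists are not known here, so absence from a list does not show that a contact was absent. The lists from ZNF143KO cells had another file layout than the wild-type CTCF and RAD21 lists, so genotype and list making cannot be told apart. All 11 region counts at 0 h and the 1 at 24 h were even numbers, as were 89.5% and 86.8% of all counts in those lists against 68.1% to 74.6% in the other 5. What made them even is not given in the sources used here, so a count in the CTCF-AID lists may not stand for the same number of read pairs as in the others.

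The domain loop joined a left anchor at chr16:55498344-55499850 to a right anchor at chr16:55735210-55738250, with midpoints 238 kb apart. Its count was 401 (363 to 442) for CTCF and 432 (392 to 475) for RAD21 in wild-type cells. In ZNF143KO cells it was 70 (54.6 to 88.4) for CTCF and 78 (61.7 to 97.3) for RAD21. For ZNF143 it was 4 (1.09 to 10.2) in wild-type cells and 8 (3.45 to 15.8) in CTCF-AID cells at 0 h, and the loop was not listed at 24 h. The loop was thus listed in 6 of 7 libraries, with all 4 CTCF and RAD21 counts above the ZNF143 counts of wild-type and CTCF-AID cells. The next highest loops in the wild-type lists had 261 counts for CTCF and 378 for RAD21. Without ZNF143 the loop ranked 3 among CTCF loops, below loops of 102 and 99 counts, and 2 among RAD21 loops, below a loop of 116 counts. In the wild-type ZNF143 list, by contrast, it ranked 2537 by count.

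Few loops of its length came near its count. Of the 2816 wild-type CTCF loops that spanned 200 to 300 kb, the median count was 2 and the second highest count was 78. Of the 2505 such RAD21 loops, the median was 3 and the second highest 82. The region as a whole held 18.0% (16.7 to 19.3, Wilson) of all CTCF counts on chromosome 16 and 23.8% (22.2 to 25.4) of all RAD21 counts. These shares were 5.58% (4.63 to 6.70) and 11.2% (9.61 to 13.0) in ZNF143KO cells. For ZNF143 the region held 0.111% (0.0432 to 0.285) of the chromosome 16 count in wild-type cells, 0.451% (0.323 to 0.630) at 0 h and 0.0860% (0.0394 to 0.188) at 24 h.

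**Figure D1:**
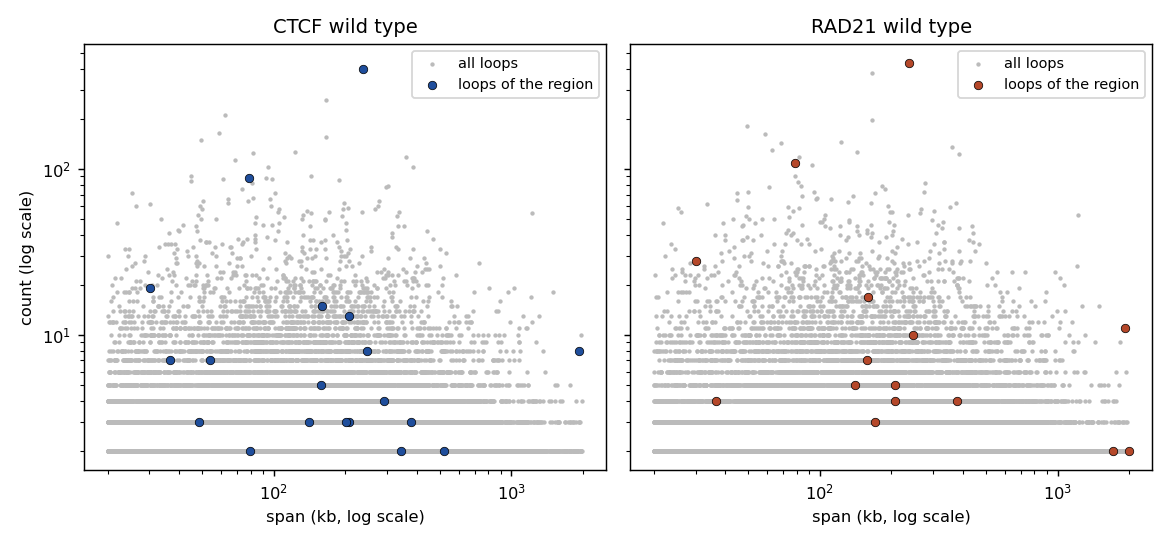
Count of each loop (vertical, log scale) against its span in kb (horizontal, log scale) in the wild-type CTCF and RAD21 lists. Grey points are all loops and coloured points the loops of the region; the domain loop, at 238 kb, is the highest point of each panel, with 401 and 432 counts.

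The loops of the region formed a fan from the left anchor. Merging the anchors of all 7 lists where they overlapped gave 32 anchors, 18 of them inside the window, and 44 different pairs of anchors. Of these pairs 30 were listed in 1 library, 4 in 2, 7 in 3, 2 in 4 and 1, the domain loop, in 6. Merging anchors within 5 kb gave 29 anchors, so some pairs counted apart here join nearly the same places. No such split over all loops is given here, so these numbers cannot be called particular to the region. The left anchor took part in 51 of the 73 listed loops and was listed in all 7 libraries. The right anchor took part in 21 and was listed in 6. Loops at the left anchor carried 93.3% (91.0 to 95.03, Wilson) of the region's CTCF count and 96.3% (94.5 to 97.5) of its RAD21 count in wild-type cells. In ZNF143KO cells these shares were 90.6% (83.5 to 94.8) and 92.6% (87.2 to 95.8).

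The left anchor had 13 CTCF loops and 12 RAD21 loops in wild-type cells, where the median anchor had 1, and it ranked first of 16948 CTCF and of 15742 RAD21 anchors by summed count. By number of loops, 61 CTCF anchors and 44 RAD21 anchors had more. By summed count, far more than by number, its loops ran to higher coordinates. The domain loop, for which the region was chosen, held 401 of the CTCF and 432 of the RAD21 counts on that side. In the wild-type CTCF list 7 loops with 531 counts went to higher coordinates and 6 loops with 25 counts to lower ones, and for RAD21 these were 7 loops with 593 counts and 5 with 25. The right anchor was one-sided in wild-type cells: its 6 CTCF loops and 3 RAD21 loops all went to lower coordinates. In ZNF143KO cells the right anchor had 4 CTCF loops with 78 counts to lower coordinates and 1 with 2 counts to higher ones. The left anchor had 12 RAD21 loops with 137 counts there, and 5 CTCF loops with 96 counts. Of those 12 RAD21 loops, 5 joined anchors that the wild-type RAD21 list did not join to the left anchor. Such loops were common over the whole list. With anchors extended by 5 kb, 50.9% of all ZNF143KO RAD21 loops were found in the wild-type RAD21 list, and 8 of the 17 in the region.

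**Figure D2:**
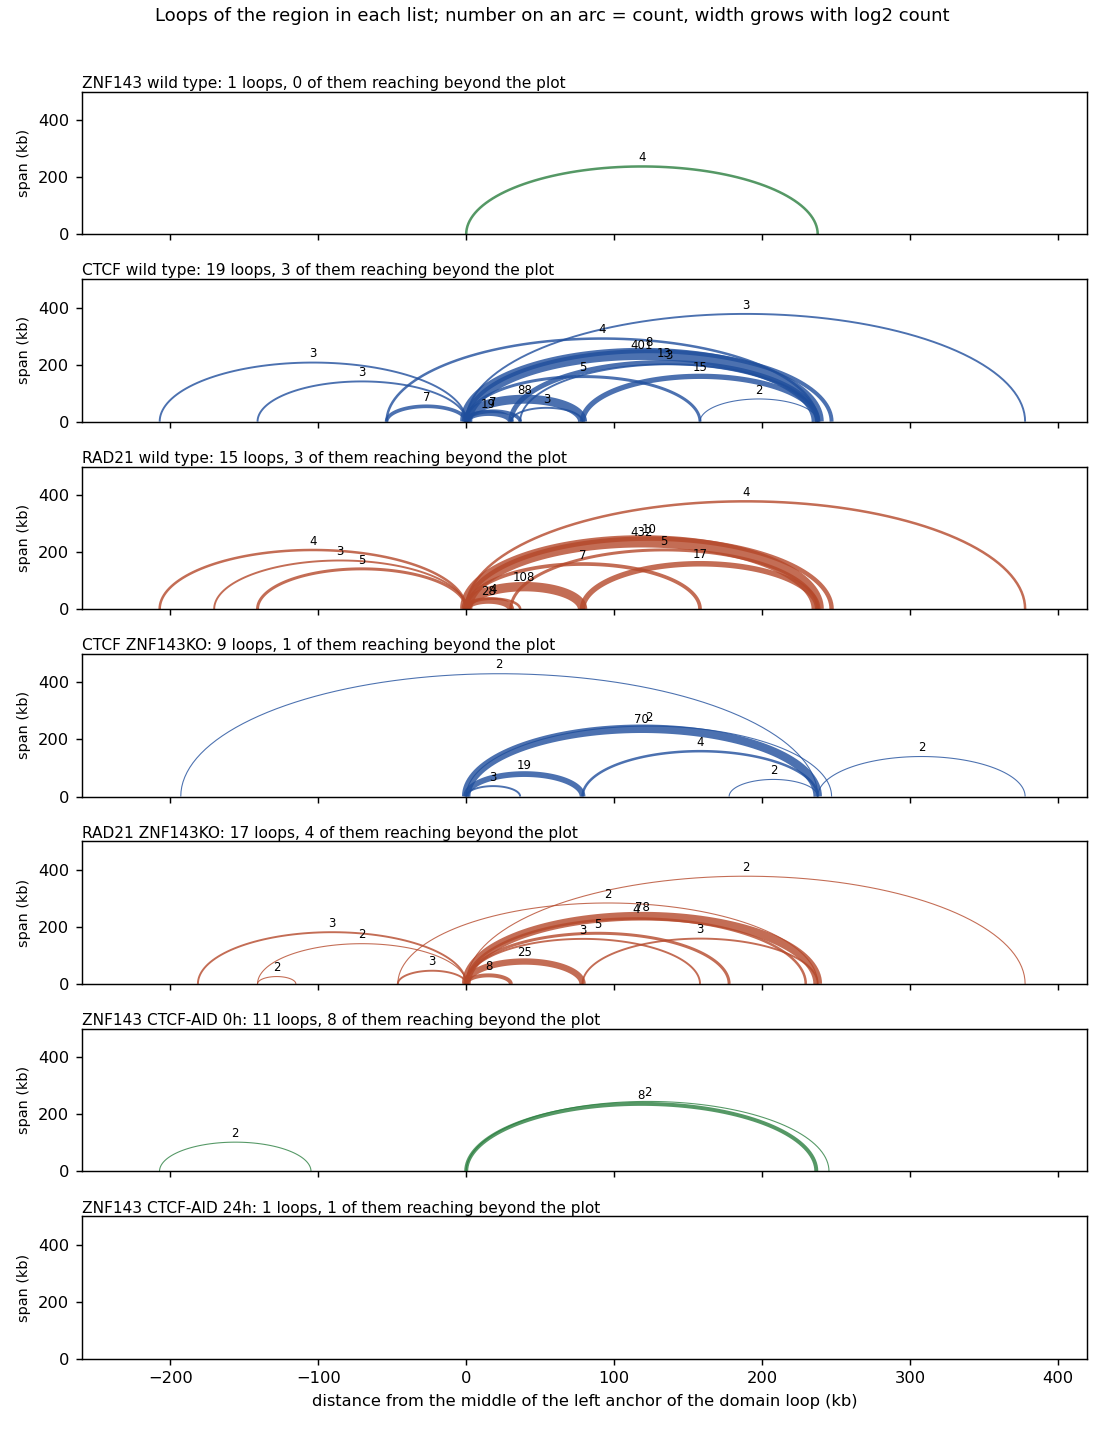
Loops of the region in each of the 7 lists, drawn as arcs between anchor midpoints. The horizontal axis is the distance in kb from the middle of the left anchor, the height of an arc is its span in kb, its number is its count and its width grows with log2 of the count. In each CTCF and RAD21 panel the arc of highest count joins the left anchor to the right anchor 238 kb away; loops that reach beyond the plot are counted in each panel title.

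Inside the domain loop, smaller loops shared 1 of its anchors. Over the 7 lists, the 6 entries of the domain loop held 993 counts, 24 entries with 1 shared anchor and the other anchor inside held 397, and 36 entries with 1 shared anchor and the other outside held 131. Only 1 entry was nested with neither anchor shared, a wild-type CTCF loop of 3 counts, and only 1, a wild-type RAD21 loop of 2 counts, crossed a boundary without using an anchor of the domain loop. No entry enclosed the domain loop with both anchors outside it (0 of 73), though some of those with 1 shared anchor spanned it, and 5 entries with 10 counts lay outside it without touching it.

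The strongest nested loop joined the left anchor to a middle anchor at chr16:55576626-55578893, 78.7 kb away. Its count was 88 (70.6 to 108) for CTCF and 108 (88.6 to 130) for RAD21 in wild-type cells, and 19 (11.4 to 29.7) and 25 (16.2 to 36.9) in ZNF143KO cells. It was in none of the 3 ZNF143 lists. The loop from the middle to the right anchor, which spans the remaining 159 kb, had 15 counts for CTCF and 17 for RAD21 in wild-type cells and 4 and 3 in ZNF143KO cells. The middle anchor was thus joined to both ends of the domain loop in all 4 CTCF and RAD21 lists, each time with a higher count for the shorter side. No ZNF143 list held a loop at the middle anchor.

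A near anchor at chr16:55528441-55530070, 30.2 kb from the left anchor, repeated the pattern at a lower level. The left-to-near loop had 19 counts for CTCF and 28 for RAD21 in wild-type cells and 8 for RAD21 in ZNF143KO cells, and it was missing from the CTCF list of those cells. The near-to-right loop had 13 CTCF and 5 RAD21 counts in wild-type cells and was listed in neither ZNF143KO library. Loops from the left anchor to chr16:55534653-55536502 had 7 CTCF and 4 RAD21 counts in wild-type cells and 3 CTCF counts in ZNF143KO cells. Loops from the left anchor to chr16:55656125-55658212 had 5 CTCF and 7 RAD21 counts in wild-type cells and 3 RAD21 counts in ZNF143KO cells. Both of these anchors also reached the right anchor in the wild-type CTCF list, with 3 and 2 counts.

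**Figure D3:**
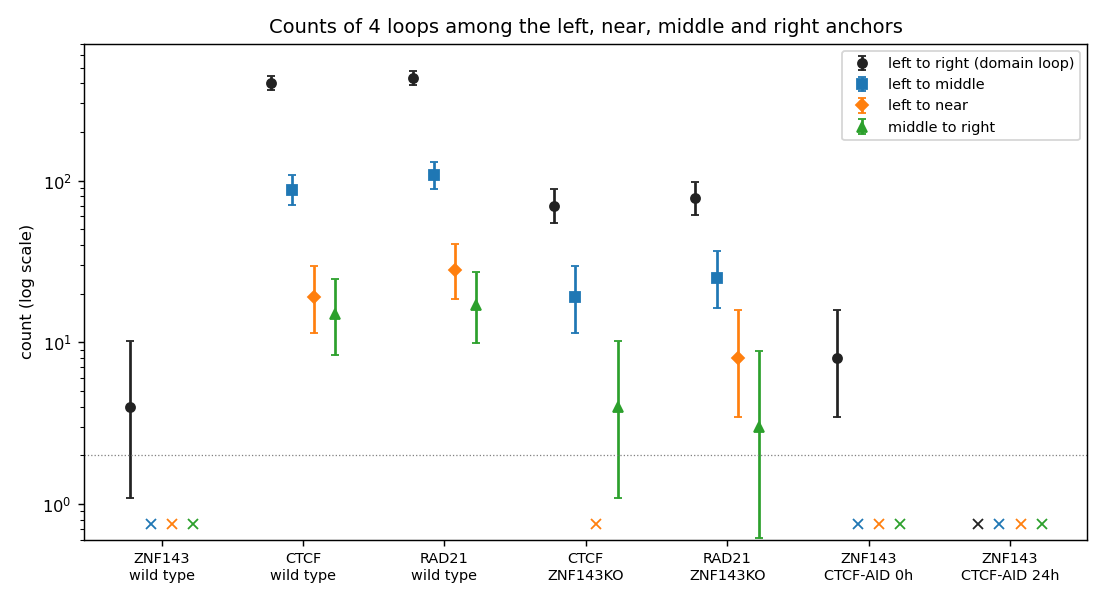
Counts (vertical, log scale) of the domain loop, the left-to-middle, left-to-near and middle-to-right loops in the 7 libraries. Bars are exact 95% Poisson intervals, crosses mark loops that are not listed and the dotted line marks 2, the lowest listed count. The domain loop has the highest count of the 4 loops in each library that lists it, and the order left-to-right, left-to-middle is the same in all 4 CTCF and RAD21 libraries.

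Just past the right anchor, the left anchor reached chr16:55745249-55746998, 247 kb away, with 8 CTCF and 10 RAD21 counts in wild-type cells and 2 CTCF counts in ZNF143KO cells. Farther on, it reached chr16:55875938-55877981, the last anchor inside the window, with 3 CTCF and 4 RAD21 counts in wild-type cells and 2 RAD21 counts in ZNF143KO cells. On the other side, chr16:55356932-55359121 was joined to the left anchor by 3 CTCF and 5 RAD21 counts in wild-type cells and 2 RAD21 counts in ZNF143KO cells. An anchor at chr16:55444090-55446481 was used only in the wild-type CTCF list among the 7, where it was joined to the left anchor by 7 counts and to the right anchor by 4. Widening the window by 100 kb on each side added no loop in 6 lists and 6 loops at 0 h.

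The left anchor also had a loop near the longest span that the lists hold, 2.00 Mb. It reached chr16:53583301-53584819, 1.92 Mb away, with 8 CTCF counts and 11 RAD21 counts in wild-type cells and 2 ZNF143 counts at 0 h. Among wild-type loops longer than 1 Mb, 15 of 381 CTCF loops and 9 of 365 RAD21 loops had a higher count, and the median was 2. Neither ZNF143KO library listed this loop. The RAD21 list of those cells did hold 3 other loops within 5 kb of the far anchor, with 6 counts in all, whereas their CTCF list held none.

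CTCF and RAD21 were compared within each genotype, to see how far both antibodies gave the same loops. A match needed both anchors, each extended by 5 kb, to overlap the anchors of 1 loop in the other list. The near anchor and that at 55534653 lie within this distance, so loops at either matched loops at the other. In wild-type cells 13 of the 19 CTCF loops were found for RAD21, where 46.4% of all CTCF loops were, and 12 of the 15 RAD21 loops were found for CTCF, where 52.2% of all RAD21 loops were. All 9 RAD21 loops of the region with at least 5 counts were among them, as were 9 of 10 such CTCF loops, where 84.9% and 84.4% of all loops of at least 5 counts were found. In ZNF143KO cells 4 of 9 CTCF loops were found for RAD21 (30.0% over the whole list) and 4 of 17 RAD21 loops for CTCF (41.3%). Of 13 such RAD21 loops with fewer than 5 counts 1 was found, where 35.7% over the whole list were, and of 4 with at least 5 counts 3 were, where 81.9% were.

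The level of the domain loop, as a share of the list total, was 1.17 times as high for RAD21 as for CTCF in wild-type cells (1.02 to 1.34) and 1.54 times in ZNF143KO cells (1.10 to 2.16). As deposited, the ratios of the counts were 1.08 (0.938 to 1.24) and 1.11 (0.797 to 1.56), so no difference between antibodies was visible without scaling. The left-to-middle loop had 0.219 times the count of the domain loop for CTCF (0.172 to 0.277) and 0.250 times for RAD21 (0.201 to 0.309) in wild-type cells.

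Loops with and without ZNF143 were then set side by side. Taken as a share of the list total, the domain loop in ZNF143KO cells stood at 0.305 times its wild-type level for CTCF (0.233 to 0.394) and at 0.402 times for RAD21 (0.311 to 0.512). The counts themselves had ratios of 0.175 and 0.181. The result depended on the scale: against the total over loops of at least 10 counts, the ratios were 1.02 (0.782 to 1.32) for CTCF and 1.12 (0.865 to 1.42) for RAD21. That fixed minimum left out more of the ZNF143KO totals than of the wild-type totals, which raises these ratios. A value near 1 on this scale therefore cannot show that the loop kept its level. Strong loops had lower counts in the ZNF143KO lists in general. Among loops of at least 20 wild-type counts found in both lists, the median ratio of counts was 0.297 for CTCF (325 loops) and 0.273 for RAD21 (360 loops). The ratio of the domain loop was below these medians, and 61 of 331 strong CTCF loops (18.4%) and 106 of 379 strong RAD21 loops (28.0%) had a lower ratio still. Among the 20 loops of highest wild-type count, 4 CTCF and 4 RAD21 loops had a lower ratio than the domain loop, and the medians were 0.258 and 0.239.

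A share of the list total under 0.5 times the wild-type share was seen for 2 of the 2 strong CTCF loops of the region, against 48.9% of all strong CTCF loops. It was seen for 1 of 3 strong RAD21 loops, the domain loop, against 39.6% of all. The left-to-middle loop had a ratio of 0.377 (0.217 to 0.624) for CTCF and 0.515 (0.319 to 0.801) for RAD21, and the left-to-near loop had 0.635 (0.250 to 1.43) for RAD21. Every strong loop of the region was still listed in ZNF143KO cells, 2 of 2 for CTCF, where 98.2% of all strong loops were, and 3 of 3 for RAD21, where 95% were.

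**Figure D4:**
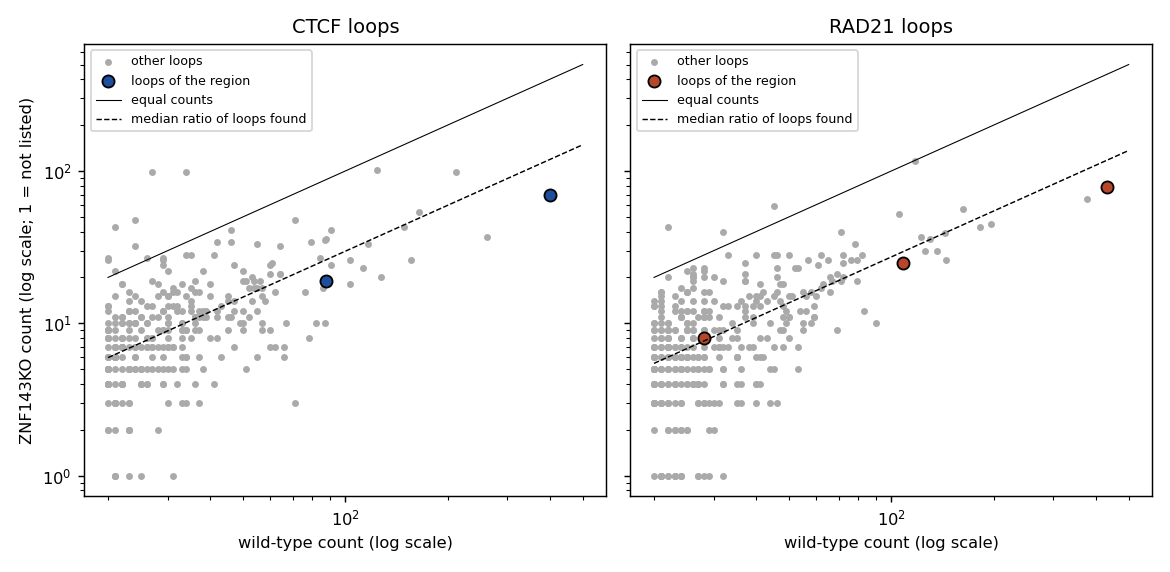
Count in ZNF143KO cells (vertical, log scale, 1 for loops not listed) against count in wild-type cells (horizontal, log scale) for all loops of at least 20 wild-type counts, CTCF on the left and RAD21 on the right. Coloured points are loops of the region, the solid line marks equal counts and the dashed line the median ratio of loops found in both lists, 0.297 and 0.273. The domain loop is the rightmost point of each panel and lies below the dashed line.

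Counting all loops, 7 of the 19 wild-type CTCF loops of the region were found in ZNF143KO cells (39.1% over the whole list) and 9 of the 15 RAD21 loops (34.1%). Among loops with at least 5 counts the numbers were 6 of 10 for CTCF and 6 of 9 for RAD21, where 71.4% and 67.3% of all such loops were found. The region's summed count as a share of the list total was 0.311 times the wild-type value for CTCF (0.250 to 0.382) and 0.513 times for RAD21 (0.426 to 0.614). At a minimum count of 10 in the region and the total, these ratios were 0.973 (0.769 to 1.22) and 1.05 (0.843 to 1.29). Here too the minimum left out more of the ZNF143KO totals, so values near 1 do not show an unchanged level.

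The make-up of the region was compared without any scaling, as the count of the other loops per count of the domain loop. For CTCF this was 0.486 in wild-type and 0.514 in ZNF143KO cells, a ratio of 1.06 (0.662 to 1.67), which turned to 0.788 (0.466 to 1.30) with loops of at least 3 counts and 0.640 (0.353 to 1.12) with at least 5. For RAD21 it was 0.486 and 0.897, a ratio of 1.85 (1.26 to 2.69), so in that library less of the region's count lay in the domain loop, at 52.7% (44.7 to 60.6, Wilson) against 67.3% (63.6 to 70.8) in wild-type cells. This rested on loops of few counts. With loops of at least 5 counts the RAD21 ratio was 1.10 (0.700 to 1.71), and with loops found in both lists it was 1.42 (0.924 to 2.17). For the left-to-middle loop per count of the domain loop the ratios were 1.24 (0.668 to 2.21) for CTCF and 1.28 (0.745 to 2.15) for RAD21, intervals that include 1.

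Some anchors were used in 1 genotype alone among the CTCF and RAD21 lists. In ZNF143KO cells 5 of 12 RAD21 anchors and 1 of 7 CTCF anchors inside the window were at no loop of the same antibody's wild-type list, against 28.9% and 31.2% of all anchors of those lists. In the other direction, 1 of 9 wild-type RAD21 anchors and 3 of 10 wild-type CTCF anchors were at no loop of the ZNF143KO list, against 42.1% and 35.3% of all. The anchor at chr16:55675662-55678035 was the one in both ZNF143KO lists. It was joined to the left anchor by 5 RAD21 counts and to the right anchor by 2 CTCF counts, and none of the other 5 lists held a loop there. An anchor at chr16:55727421-55729866, close to the right anchor, was joined to the left anchor by 4 RAD21 counts in ZNF143KO cells only.

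**Figure D5:**
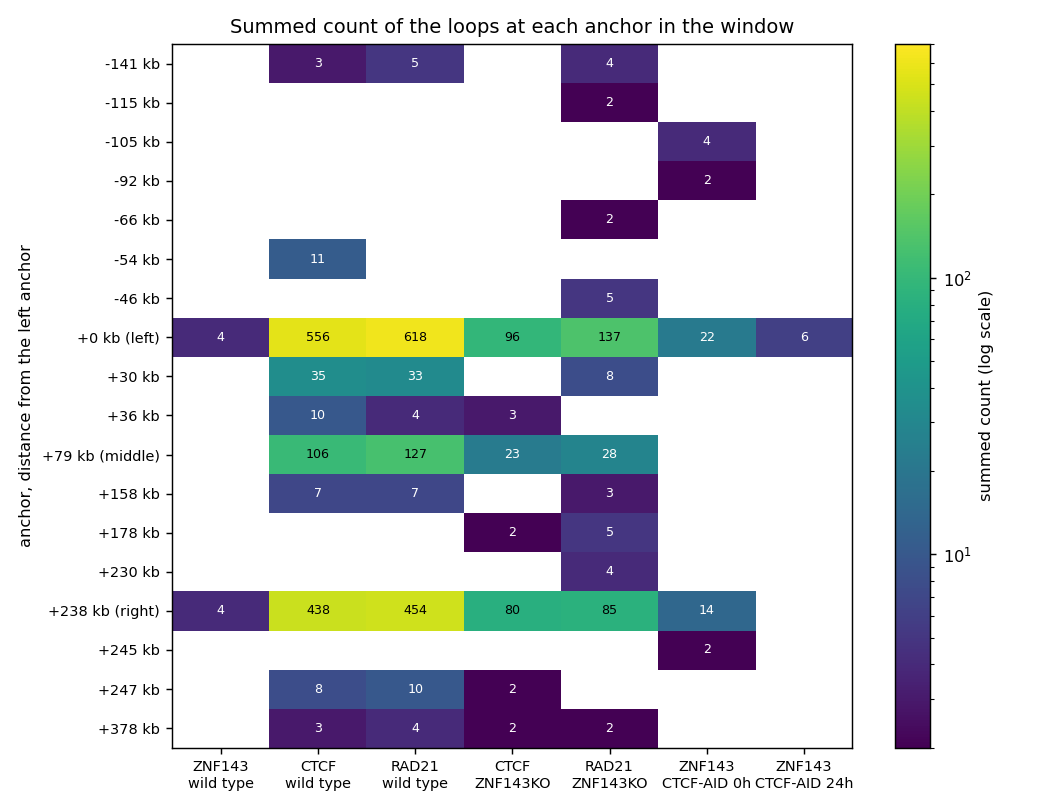
Summed count of the loops at each of the 18 anchors inside the window (rows, by distance from the left anchor in kb) in the 7 lists (columns), on a log colour scale. Blank cells had no listed loop. The left, middle and right rows carry most counts in the CTCF and RAD21 columns, and the left row is the only one filled in all 7 columns.

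ZNF143 loops were compared with and without CTCF, and between unmodified and CTCF-AID cells. In wild-type cells the domain loop, at 4 counts, was the only ZNF143 loop of the region. In CTCF-AID cells at 0 h it was 1 of 11, with 8 counts, and 7 of the other 10 shared its left or right anchor. Its share of the list total at 0 h was 0.690 times that in wild-type cells, with an interval of 0.185 to 3.13. Without scaling, the ratio was 2.0 (0.536 to 9.08), on 4 and 8 counts, and with the CTCF-AID count divided by 2 it was 1.0 (0.186 to 5.37), so no direction can be read from it. Of the 11 loops at 0 h, 1 was found in the wild-type ZNF143 list, where 19.4% of all 0 h loops were, and 3 were found in the wild-type CTCF list, where 12.0% of all 0 h loops were.

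After 24 h of auxin none of the 11 loops was found (0 of 11), where 24.7% of all 0 h loops were. Of the 11 loops 9 had fewer than 5 counts, where 19.1% of all such 0 h loops were found, and 2 had at least 5 counts, where 58.7% were. The left anchor still had 1 ZNF143 loop at 24 h, to chr16:54961998-54963923, 536 kb away, with 6 counts. No other list held that loop, and at 24 h the right anchor had no loop (0). The summed ZNF143 count of the region went from 34 at 0 h to 6 at 24 h, a ratio of 0.245 (0.0842 to 0.591) as a share of the list totals, and of 0.370 (0.120 to 0.973) over loops of at least 3 counts.

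Of the 11 ZNF143 loops at 0 h, 7 were longer than 1 Mb, against 1 of 19 CTCF and 3 of 15 RAD21 loops in wild-type cells. Over the whole lists, 10.4% of loops at 0 h were that long, 1.97% of wild-type CTCF loops and 2.17% of wild-type RAD21 loops. With the same ZNF143 antibody the share was 2.62% in the wild-type list and 14.8% at 24 h. The high share was thus seen in both CTCF-AID lists and not in the wild-type ZNF143 list. The highest of the 7 loops at 0 h joined an anchor at chr16:53736668-53738888 to the right anchor, 2.00 Mb away, with 6 counts. The same anchor was joined to the left anchor, 1.76 Mb away, with 4. Of the 4206 loops over 1 Mb at 0 h, 36 had more than 6 counts. Both ends of the domain loop thus had a ZNF143 loop to the same distant anchor, and none of the other 6 lists joined that anchor to the region.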

How the data were processed

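HiChIP loops were analysed from 7 libraries, 1 per group, with groups taken from the sample titles. The authors deposited 1 list per library with 2 anchors and a whole-number count per loop, not scaled. The submitters' processing notes name HiC-Pro and hg19. The loop caller, filters and pooling of runs are not given in the sources used here. The members and lists of loops were chosen with earlier results of these data known. Positions were converted to start from 1.

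Counts were compared as deposited and as shares of the list total, with exact binomial-split intervals for ratios, exact Poisson intervals for counts, Wilson intervals for shares and exact conditional intervals for ratios relative to the domain loop (Python 3.11.15, scipy 1.17.1). Loop matching and ratio intervals were tested on simulated lists. Read pairs may include PCR copies of 1 molecule, so all intervals cover counting error only. Loops to be named were the domain loop, the next 3 by count in each list, loops of all 7 lists (there were 0) and the longest of each list. Some of these with only 2 counts were not located above. They were the longest CTCF and RAD21 loops of the ZNF143KO lists, the longest wild-type RAD21 loop and a 0 h loop. Named anchors were those of the domain loop and the 8 others of highest summed count. The anchors starting at 55444090, 55675662, 55727421 and 55875938 were named after their values were seen. Alternatives changed the scaling, minimum count, window and anchor extension. The planned search for CTCF and ZNF143 motifs, and gene overlaps of anchors, were not run, as no genome of the files' build was used here.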

Additional observations from a re-analysis of the deposited data

How the results depend on the processing

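The cause of these changes was not tested. No paired analysis was possible because each group held 1 library. Unscaled, the domain loop's ratio of ZNF143KO to wild-type cells was 0.175 for CTCF and 0.181 for RAD21. Scaled to the total over loops of at least 10 counts it was 1.02 and 1.12, a reversal of sign with intervals that include 1. That minimum left out more of the ZNF143KO totals, which raises the ratio. Scaled to the median ratio of strong loops, an alternative chosen after seeing the data, the domain loop's ratio was 0.587 and 0.662. For ZNF143 at 0 h against wild-type cells the sign reversed unscaled (2.0) and with the median ratio (1.57), on counts of 4 and 8. With the CTCF-AID count divided by 2, since nearly all were even, it was 1.0. The region's count ratio unscaled was 0.178 for CTCF and 0.231 for RAD21. At a minimum of 10, with the same limit, it was 0.973 and 1.05, and without the domain loop it was 0.739 for RAD21. A minimum of 3 left 4 CTCF and 9 RAD21 loops in ZNF143KO cells and 3 ZNF143 loops at 0 h. With both anchors in the window 2 loops were left at 0 h and 0 at 24 h, and the wider window gave 17 at 0 h. The other loops per domain loop count, a measure also added after seeing the data, had CTCF ratios of 0.788 and 0.640 at minimums of 3 and 5, both reversed, and a RAD21 ratio of 1.10 at 5. Of 60 values recomputed, 38 lay inside the interval of the reported ratio and did not cross 1, or within 1.5 times the reported number, which says little where intervals are wide, 15 moved and 7 crossed 1. The 24 h domain loop ratio, the ZNF143 ratios at a minimum of 10 and the wild-type ZNF143 ratio without the domain loop could not be computed, as a list held no such loop.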

Other observations

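The distant anchor that ZNF143 loops joined to both ends of the domain loop at 0 h had most of its loops in the ZNF143 lists. Within 5 kb of chr16:53736668-53738888, the wild-type ZNF143 list held 16 loops with 112 counts, and the CTCF-AID lists held 17 with 260 counts at 0 h and 14 with 265 at 24 h. The wild-type CTCF and RAD21 lists held none there (0 each), and the ZNF143KO lists held 0 for CTCF and 1, with 2 counts, for RAD21. At 0 h 4 of its 17 loops reached the region, and at 24 h 0 of 14 did. Over the whole list only 24.7% of 0 h loops were found at 24 h, and 19.1% of those with fewer than 5 counts. The counts at this anchor are not scaled, and the list totals were 143119 at 0 h and 102962 at 24 h. The 4 loops to the region had 2 to 6 counts and lengths of 1.66 to 2.00 Mb, and the longest lay at the 2.00 Mb limit of the lists.

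The far partner of the left anchor at 24 h, chr16:54961998-54963923, had 10 ZNF143 loops with 36 counts at 0 h and 10 with 42 at 24 h, 1 with 4 counts in wild-type cells, and none (0) in the 4 CTCF and RAD21 lists. The loop to the left anchor was 1 of those 10 at 24 h and was not listed at 0 h.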
